A study of Mus musculus with 9 samples.

Results

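The genes described here are those of the SNARE, exocyst and secretory coat machinery, measured by RNA sequencing in oligodendrocyte lineage cells sorted from mouse brain. They were taken by symbol: every gene named Vamp1 to Vamp8, Stx, Stxbp, Snap, Syt, Exoc or Sec followed by a number or letter in the way these families are named, with Sec11c left out. The rule took 70 of the 11315 genes in the deposited tables. By role they are 6 VAMPs, 5 plasma membrane syntaxins, 8 Golgi and endosomal syntaxins, 4 members of the SNAP-25 family, 3 of the Sec22 family, 7 syntaxin-binding proteins, 6 synaptotagmins, 9 exocyst subunits, the exocyst-like gene Exoc3l, 10 genes of the COPII coat and its exit sites, 7 of the ER translocon and signal peptidase, and 3 Sec14-like lipid transfer proteins. The symbol pattern also took Snap91, which encodes the clathrin assembly protein AP180 and not a SNARE.

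The cells came from C57BL/6 mice at postnatal day 60 and fell into 3 groups of 3 libraries, named here by the fluorescent reporter used for the sort: NDRG1-eGFP, which the labels call myelinating oligodendrocytes, PLP-GFP, which they call pre-myelinating oligodendrocytes, and PDGFRa-GFP, which they call oligodendrocyte progenitor cells. All 3 groups carried a reporter and none was an unsorted or reporter-free control. The promoters or alleles behind the reporters, the number of mice per library and whether the replicates came from separate mice are not given in the sources used here, and a p-value here speaks only to the spread among these samples. The deposited values are on a log2 scale and were normalized so that every library had nearly the same distribution, with a median of 10.57, so a log2 value places a gene within its library, and sequencing depth is unknown.

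Secretory cargo enters the endoplasmic reticulum (ER) through the Sec61 channel, leaves it in vesicles built by the COPII coat, and crosses the Golgi to the cell surface. At each stop a vesicle is first held by a tether, of which the exocyst is the one at the plasma membrane, and then fuses when an R-SNARE on the vesicle (a VAMP or Sec22) zips together with Q-SNAREs on the target (a syntaxin, with SNAP-25 relatives or other Q-SNAREs). Oligodendrocytes use this route to build large amounts of myelin membrane. Vamp3, together with Vamp7, which was not analysed here, is known for carrying proteolipid protein to the myelin membrane, and endosomes and lysosomes of these cells hold a store of the same protein.

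Myelin genes were high in every group, the one labelled as progenitors included. The 10 oligodendrocyte markers, such as Mbp and Mog, had median log2 values of 17.65 to 18.48 in every library, the PDGFRa-GFP libraries included. Pdgfra itself was at 5.85, 4.98 and 6.26 in NDRG1-eGFP, 1.52, 4.98 and 1.63 in PLP-GFP and 6.87, 7.54 and 5.47 in PDGFRa-GFP libraries, below the library median in all of them. Vcan, another progenitor marker, was at 5.21, 2.05 and 2.18 in NDRG1-eGFP, 4.45, 2.49 and 3.24 in PLP-GFP and 7.41, 8.87 and 5.27 in PDGFRa-GFP libraries. Of the 6 measured progenitor markers, Lrrn1 and Matn4 went another way. Lrrn1 was at 15.41, 15.41 and 15.50 in NDRG1-eGFP, 15.31, 15.60 and 15.57 in PLP-GFP and 15.16, 14.99 and 14.69 in PDGFRa-GFP libraries. Matn4 was at 6.57, 8.23 and 8.28, then 8.49, 8.84 and 9.54, then 7.97, 8.63 and 8.14 in the same order. The 6 together summed to 722 to 776, 684 to 838 and 444 to 659 ppm of all summed linear values. These sums mostly follow Lrrn1, by far the highest of the 6, and do not describe the other markers. The median log2 value of the 6 was 6.6 to 7.43 in NDRG1-eGFP, 7.38 to 8.18 in PLP-GFP and 7.46 to 8.75 in PDGFRa-GFP libraries. Gpr17 was at 10.19, 8.58 and 9.67, then 9.68, 9.88 and 9.93, then 11.44, 12.64 and 8.2 in the same order. Cspg4 was at 7.2, 4.41 and 6.59, then 6.28, 6.39 and 6.83, then 6.84, 8.05 and 6.79. Markers of other cells differed between the groups. In the fit described below, 10 of 11 fibroblast-like markers were called higher in NDRG1-eGFP relative to PLP-GFP libraries, and their summed level was 89.8 to 385 ppm of all summed linear values in NDRG1-eGFP, 5.68 to 13.8 in PLP-GFP and 207 to 489 in PDGFRa-GFP libraries. Of 11 microglial markers, 9 were called higher in NDRG1-eGFP relative to PLP-GFP, with summed levels of 116 to 181, 56.2 to 81.3 and 70.8 to 118 ppm in NDRG1-eGFP, PLP-GFP and PDGFRa-GFP libraries. Of 15 immediate early genes, which can rise when tissue is handled, 12 were called higher in that comparison. By library their sums were 3290, 542 and 4350 ppm in NDRG1-eGFP, 272, 251 and 272 in PLP-GFP and 3940, 3950 and 287 in PDGFRa-GFP. Replicate 2 of NDRG1-eGFP and replicate 3 of PDGFRa-GFP were thus far below their partners. Of 11 measured neuron markers 1 was called higher and 7 of 18, Rbfox3 and Slc17a7 among them, were not measured. None of the 10 astrocyte markers or the 2 measured endothelial markers was called by limma between NDRG1-eGFP and PLP-GFP, and 0 of them had an unadjusted p under 0.05. The replicate 3 library of PDGFRa-GFP stood apart: of the 3 libraries in its group it lay farthest from the group mean for 49 of the 70 secretory genes, with a median distance of 0.33 on the log2 scale, against 0.07 to 0.17 for the 8 other libraries.

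As a set the secretory genes were well expressed. The median of their 9-library means was 11.40, against 10.57 for all genes, and 8 of the 70 had a mean under 8, where 18.2% of all genes lie. Syt11, a synaptotagmin that does not bind calcium, was by far the highest, with a mean above that of 99.8% of all genes. Its log2 values were 17.59, 17.52 and 17.52 in NDRG1-eGFP, 17.55, 17.52 and 17.52 in PLP-GFP and 17.42, 17.42 and 17.34 in PDGFRa-GFP libraries. No comparison called it as deposited, and its fold change between NDRG1-eGFP and PLP-GFP was 0.02 on the log2 scale. With the trend on transcript length described below removed, it was called higher in NDRG1-eGFP (0.44, limma adjusted p = 0.0165). A scale per kilobase of transcript takes the deposited values as not already corrected for length, which was not tested. Per kilobase Syt11 was also first, with a log2 value of 15.16 averaged over 9 libraries. On that scale it was followed by the synaptic and constitutive R-SNARE Vamp2 (12.71), Stxbp3 (12.63), which is also called Munc18c and binds the surface syntaxin Stx4a, the COPII outer coat gene Sec13 (12.21) and Vamp3 (12.08). At the bottom of the same scale were the neuronal synaptotagmins Syt1 (2.12), Syt13 (2.31) and Syt4 (2.32), then Exoc3l (3.89) and Stxbp5l (4.14). These low genes carry wide errors: the SD of Syt4 among the NDRG1-eGFP libraries was 3.20.

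Among the 3 groups, NDRG1-eGFP had the highest mean for 40 of the 70 secretory genes, PLP-GFP for 25 and PDGFRa-GFP for 5. Over all genes the shares were 46.1% for NDRG1-eGFP, 37.0% for PLP-GFP and 16.9% for PDGFRa-GFP. The lowest mean was in NDRG1-eGFP for 17, in PLP-GFP for 23 and in PDGFRa-GFP for 30 of them, where the shares of all genes were 32.3%, 38.6% and 29.1%. The patterns by library are drawn in the map of deviations by library, where the columns of PLP-GFP are the most uniform: the median SD over the 70 genes was 0.15 in NDRG1-eGFP, 0.11 in PLP-GFP and 0.30 in PDGFRa-GFP libraries.

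**Figure D1:**
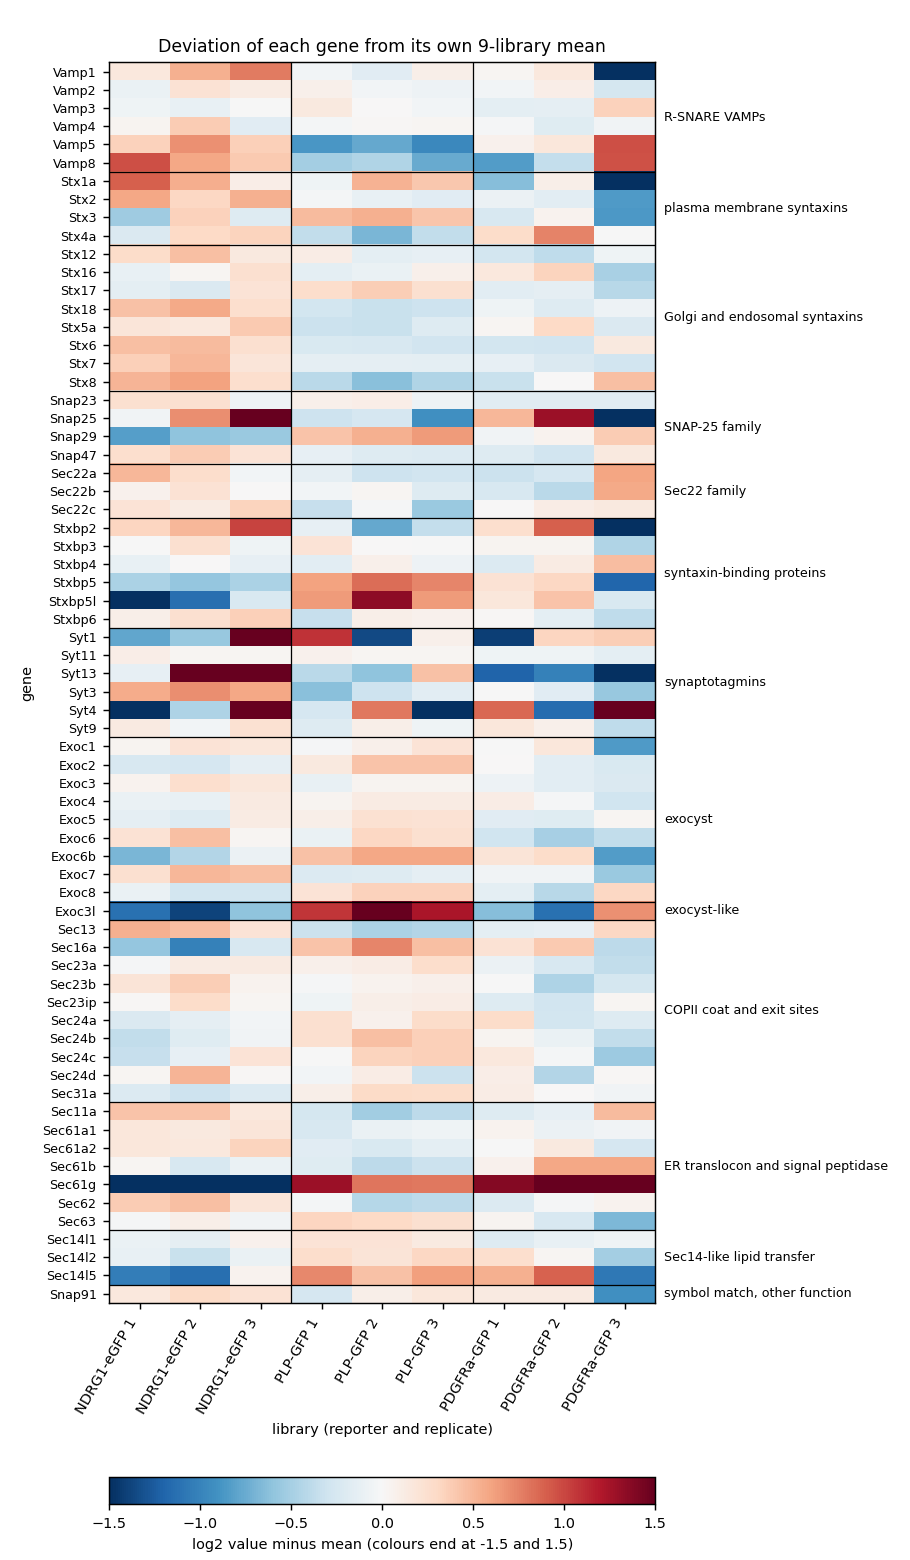
Each row is 1 of 68 of the 70 genes, grouped by role, and each column 1 of the 9 libraries, in the order NDRG1-eGFP, PLP-GFP and PDGFRa-GFP; the colour is the log2 value minus the gene's own mean over the 9 libraries. Sec61g is far below its mean in the 3 NDRG1-eGFP libraries, the syntaxins Stx6, Stx7, Stx8 and Stx18 are above theirs there, and replicate 3 of PDGFRa-GFP departs from its 2 partners for many genes.

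Setting NDRG1-eGFP against PLP-GFP asks how the population sorted by NDRG1 differs from the one labelled as an earlier stage. In a single limma fit over all 9 libraries, with an adjusted p under 0.05 called, 18 of the 70 genes were higher and 13 were lower in NDRG1-eGFP, which is 44.3% of them against 48.3% of all genes. By direction all genes gave 26.1% higher and 22.2% lower. The secretory genes as a set changed about as often as all genes did, and their median log2 fold change was 0.14, against 0.08 for all genes. Libraries of the groups did not overlap for 25 genes on the higher side and 20 on the lower side, where all genes gave 36.6% and 29.8%. Changes on the higher side were mostly modest, with 2 of the 18 calls at a fold of at least 2. On the lower side 8 of the 13 calls reached that fold. The share of all genes that did so is not given here. With the libraries recentred by the median ratio, 13 were higher and 16 lower.

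A length trend ran through this comparison. Over the 11271 genes with an annotated transcript, the fold change fell with transcript length (Spearman rho = -0.499 across genes, which are not independent replicates), and over the 70 secretory genes rho was -0.417. The genes called higher had a median transcript length of 2698 bases, those called lower 4536 and those not called 3817. When the smooth trend on length was removed from each library, 14 genes were higher and 10 lower, 24 of 70 against 33.4% of all genes (17.7% higher and 15.7% lower). Of the 31 calls, 17 were kept with their direction (11 higher, 6 lower), and 7 genes were newly called. The source of the trend was not tested. Losses of a call given below come from fits that each left out 1 of the 6 libraries compared. Shares of all genes are given for the fit of all libraries as deposited and with the length trend removed. Counts from other fits have no such share beside them and do not set the secretory genes apart from all genes.

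**Figure D2:**
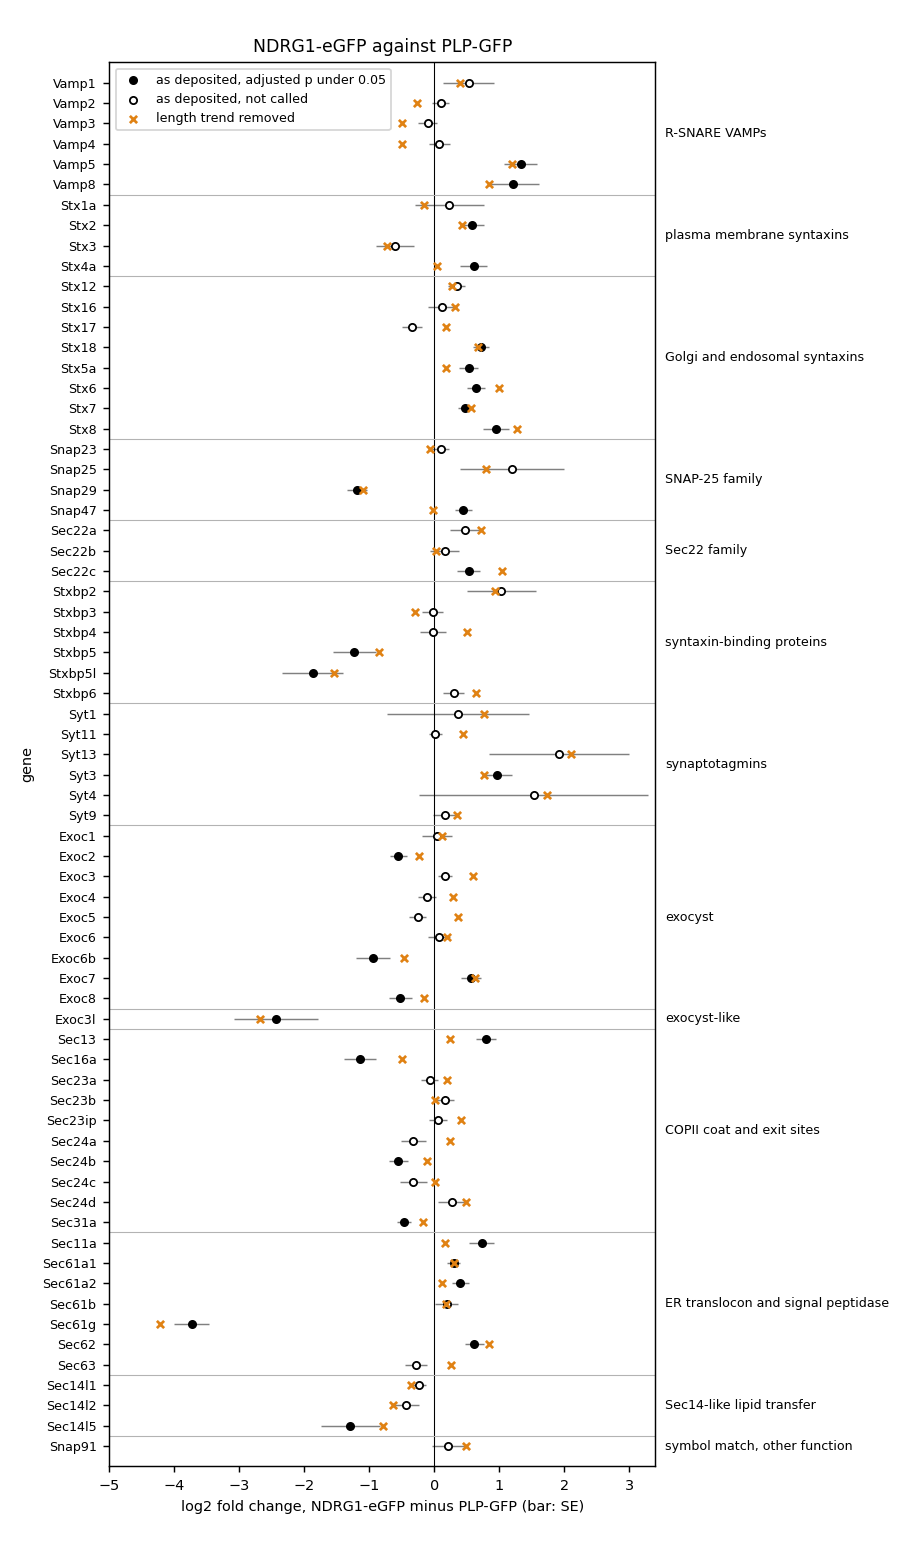
Each point is the log2 fold change of 1 of 68 genes between NDRG1-eGFP and PLP-GFP with its standard error, filled where the adjusted p is under 0.05, and each cross is the same value after removal of the length trend. Sec61g lies at -3.73, the lowest, Vamp5 at 1.33 is the highest called gene, and all 9 exocyst and most COPII genes have a higher value once the length trend is removed.

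The comparison of PLP-GFP with PDGFRa-GFP sets the labelled pre-myelinating stage against the labelled progenitors. It called 4 genes higher (Exoc2, Sec24b, Sec63 and Stx17) and 3 lower (Sec61b, Stx4a and Vamp5) in PLP-GFP, 7 of 70 against 17.0% of all genes. All genes gave 8.46% higher and 8.53% lower. Libraries did not overlap for 19 genes on the higher side and 9 on the lower, where all genes gave 22.3% and 20.0%. The 4 higher genes had a median length of 5449 bases and the 3 lower ones 623, in a comparison where the fold change rose with length (rho = 0.464 over all genes and 0.409 over the 70). With the length trend removed none of the 7 calls was kept. Then 0 genes were higher by limma (10 at an unadjusted p under 0.05), against 3.57% of all genes, and 1, Sec22c (-0.69, against -0.40 as deposited), was lower, against 4.19%. In either direction 7.75% of all genes were called. Recentring gave 2 higher and 4 lower. The counts rested on single libraries: without replicate 3 of PDGFRa-GFP 10 were higher and 6 lower, and without replicate 2 or replicate 3 of PLP-GFP limma called 0 higher and 0 lower, where the fit of all libraries had 14 higher and 8 lower at an unadjusted p under 0.05. Without replicate 2 of PDGFRa-GFP 0 were higher and 1 lower. Without replicate 1 of PLP-GFP 2 were higher, and without replicate 1 of PDGFRa-GFP 5 were lower.

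The comparison of NDRG1-eGFP with PDGFRa-GFP sets the 2 labelled ends of the lineage against each other. It shares libraries with both other comparisons, so values are given side by side below and not as support for each other. It called 9 higher (Exoc6, Exoc7, Sec23b, Stx2, Stx6, Stx7, Stx12, Stx18 and Syt3) and 2 lower (Sec61g and Snap29) in NDRG1-eGFP, 15.7% against 21.1% of all genes. All genes gave 10.7% higher and 10.4% lower. Libraries did not overlap for 21 genes on the higher side and 5 on the lower, where all genes gave 21.0% and 14.3%. After removal of the length trend there were 12 higher and 2 lower calls, against 9.08% and 9.11% of all genes (18.2% in all), and 9 of the 11 calls were kept. The 5 newly called, all higher, were Exoc3 (0.46, against 0.31 as deposited), Sec23a (0.38, against 0.32), Sec63 (0.53, against 0.30), Stx17 (0.40, against 0.18) and Stxbp6 (0.51, against 0.40). Recentring by the median ratio, which moved all fold changes by 0.1, gave 5 higher and 3 lower. Without replicate 3 of PDGFRa-GFP 17 were higher and 7 lower. Without replicate 1 of NDRG1-eGFP 3 were higher, without its replicate 2 there were 2, and without replicate 2 of PDGFRa-GFP there were 3.

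**Figure D3:**
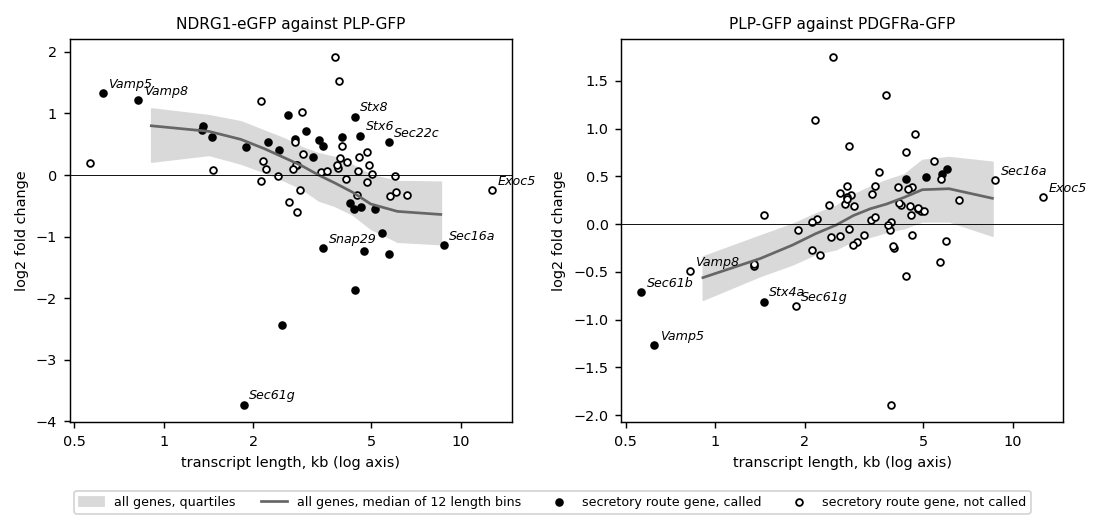
Log2 fold change against transcript length in kilobases on a log axis for NDRG1-eGFP against PLP-GFP (left) and PLP-GFP against PDGFRa-GFP (right); points are 68 of the 70 genes, filled where called, and the grey line and band are the median and quartiles of all genes in 12 length bins. In the left panel the median of all genes is 0.80 in the bin of shortest transcripts and -0.64 in the longest, and Vamp5, shorter than that bin's median length, lies above its upper quartile, while Sec61g and Snap29 lie below the band.

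At the entrance of the route, the ER translocon and signal peptidase genes held the largest change of the 70. Of 7 genes 4 were called higher in NDRG1-eGFP relative to PLP-GFP and 1 lower, with 2 higher and 1 lower after removal of the length trend. All genes gave 26.1% higher and 22.2% lower, and 17.7% and 15.7% after that removal. The same shares are the background for each count by role in this comparison given below. The lower one was Sec61g, the small gamma subunit of the Sec61 channel. Sec61g had log2 values of 6.42, 6.65 and 6.50 in NDRG1-eGFP, 10.58, 10.10 and 10.09 in PLP-GFP and 10.67, 10.93 and 11.74 in PDGFRa-GFP libraries. All 3 NDRG1-eGFP libraries were below every other library by more than 3 log2 units. Against PLP-GFP the log2 fold change was -3.73 ± 0.27 (SE), limma adjusted p = 6.44e-06, a 13.3-fold lower level, and against PDGFRa-GFP it was -4.59 ± 0.27 (SE), limma adjusted p = 1.21e-06, a 24.1-fold lower level. The call held when the length trend was removed (-4.22 and -4.85) and without any 1 library of the groups compared.

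The other subunits of the channel did not share a change of this size. Sec61a1, the main pore-forming alpha subunit, averaged 13.55 ± 0.02 in NDRG1-eGFP, 13.25 ± 0.09 in PLP-GFP and 13.36 ± 0.07 in PDGFRa-GFP libraries (SD, n = 3 each), and was called higher in NDRG1-eGFP relative to PLP-GFP (0.30 ± 0.10 (SE), limma adjusted p = 0.0354), a call lost without any 1 of the 6 libraries. Its paralogue Sec61a2 was also called higher (0.40 ± 0.13 (SE), limma adjusted p = 0.0287), but not with the length trend removed (0.12, adjusted p = 0.49 by limma) or without any 1 library. Sec61b, the beta subunit, was at 10.49, 10.22 and 10.37 in NDRG1-eGFP, 10.28, 10.07 and 10.14 in PLP-GFP and 10.53, 11.05 and 11.04 in PDGFRa-GFP libraries. It was not called between NDRG1-eGFP and PLP-GFP (0.19 ± 0.17 (SE), limma adjusted p = 0.385) but was lower in PLP-GFP relative to PDGFRa-GFP (-0.71 ± 0.17 (SE), limma adjusted p = 0.0252), and after removal of the length trend that value was -0.10 (limma adjusted p = 0.756). The call of Sec61b was lost without replicate 2 or 3 of PLP-GFP or replicate 2 of PDGFRa-GFP, with values of -0.88 to -0.62 over the 6 fits and a limma adjusted p of up to 0.119. In NDRG1-eGFP all Sec61b values were below those of PDGFRa-GFP, and the difference missed the threshold (-0.52 ± 0.17 (SE), limma adjusted p = 0.0589). With the length trend removed that difference was 0.07.

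Sec61g and Sec61b share most of their coding sequence with other loci. In the GENCODE M21 annotation of GRCm38, the assembly that mm10 denotes, Sec61g lies on chromosome 11 (16500530 to 16508484, minus strand), and all of its 155 coding windows of 50 bases also occur in another gene. The copies are 5 processed pseudogenes, of which Gm10177 on chromosome 9 (37252922 to 37253365) shares 371 windows of the transcript. For Sec61b, on chromosome 4 (47474658 to 47483242, plus strand), 76.2% of its 239 coding windows are shared, and the protein-coding gene Gm10320 on chromosome 13 holds 174 windows of its transcript. Stxbp3 on chromosome 3 shares 29.1% of its coding windows with the pseudogene Stxbp3-ps, and Syt11 shares 6.20% of its whole transcript, with 355 genes in all and none of it in the coding part. The first shared coding stretch of each is shown because an alignment of a 50-base read from it has more than 1 home; no base is singled out in capitals. The sequences are from the GENCODE M21 transcripts, in the sense direction, numbered from the A of the start codon.
Sec61g coding bases 1 to 50: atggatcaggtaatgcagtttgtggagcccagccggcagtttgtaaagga
Sec61b coding bases 3 to 52: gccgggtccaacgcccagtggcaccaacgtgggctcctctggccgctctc
Stxbp3 coding bases 12 to 61: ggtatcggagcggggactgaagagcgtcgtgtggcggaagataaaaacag
Across the whole table, of the 1094 genes with over 5% of their transcript windows in another locus, 45.7% were called lower and 10.4% higher in NDRG1-eGFP relative to PLP-GFP, against 19.6% lower and 27.7% higher among the 10177 other genes with an annotation. Against PDGFRa-GFP the shared genes gave 43.3% lower and 2.10% higher, and the others 6.83% lower and 11.6% higher. How reads with several homes were counted in each group is not given in the sources used here, and the part of this in the Sec61g value was not tested.

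Sec62 and Sec63, which guide proteins into the channel after their synthesis, differed from each other. Sec62 was at 14.44, 14.50 and 14.23 in NDRG1-eGFP, 14.02, 13.63 and 13.66 in PLP-GFP and 13.85, 14.04 and 14.11 in PDGFRa-GFP libraries. It was higher in all 3 NDRG1-eGFP libraries than in any other (0.62 ± 0.14 (SE), limma adjusted p = 0.00501 against PLP-GFP), and at 0.85 with the length trend removed. Sec63 was at 12.25, 12.35 and 12.21 in NDRG1-eGFP, 12.58, 12.56 and 12.50 in PLP-GFP and 12.30, 12.02 and 11.59 in PDGFRa-GFP libraries. It was called higher in PLP-GFP relative to PDGFRa-GFP (0.58 ± 0.17 (SE), limma adjusted p = 0.0396), but with the length trend removed it was at 0.27 (limma adjusted p = 0.225). The call of Sec63 was lost without replicate 1, 2 or 3 of PLP-GFP or replicate 2 of PDGFRa-GFP, with values of 0.39 to 0.74 over the 6 fits and a limma adjusted p of up to 0.139. Sec11a, a catalytic subunit of the signal peptidase, was at 11.59, 11.59 and 11.32 in NDRG1-eGFP, 10.90, 10.64 and 10.77 in PLP-GFP and 10.97, 11.04 and 11.64 in PDGFRa-GFP libraries. Its higher level in NDRG1-eGFP relative to PLP-GFP (0.73 ± 0.19 (SE), limma adjusted p = 0.00918) was not called once the length trend was removed (0.16, limma adjusted p = 0.334).

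In the COPII coat, 1 of 10 genes was called higher and 3 lower in NDRG1-eGFP relative to PLP-GFP, and with the length trend removed 0 were higher by limma (3 at an unadjusted p under 0.05) and 1, Sec16a, was lower. The outer coat is a cage of Sec13 and Sec31, and its genes went opposite ways. Sec13 was at 13.18, 13.11 and 12.85 in NDRG1-eGFP, 12.33, 12.18 and 12.21 in PLP-GFP and 12.50, 12.52 and 12.96 in PDGFRa-GFP libraries. Sec31a averaged 12.33 ± 0.06 in NDRG1-eGFP, 12.79 ± 0.11 in PLP-GFP and 12.59 ± 0.08 in PDGFRa-GFP libraries (SD, n = 3 each). The fold changes between NDRG1-eGFP and PLP-GFP were 0.80 ± 0.15 (SE), limma adjusted p = 0.00194 for Sec13 and -0.46 ± 0.11 (SE), limma adjusted p = 0.00769 for Sec31a. With the length trend removed the values were 0.24 and -0.17, and neither was called. The Sec13 transcript has 1353 bases and that of Sec31a 4228.

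Sec16a, the scaffold on which COPII assembles at ER exit sites, was at 11.25, 10.81 and 11.59 in NDRG1-eGFP, 12.25, 12.56 and 12.28 in PLP-GFP and 12.05, 12.22 and 11.44 in PDGFRa-GFP libraries. Its NDRG1-eGFP libraries were below all PLP-GFP libraries, with a log2 fold change of -1.14 ± 0.24 (SE), limma adjusted p = 0.00309, and at -0.50 (limma adjusted p = 0.0494) after removal of the length trend. Its transcript, with 8737 bases, is among the longest here. Of the cargo-binding inner coat genes, Sec24b was at 11.24, 11.43 and 11.56 in NDRG1-eGFP, 11.85, 12.07 and 11.97 in PLP-GFP and 11.66, 11.51 and 11.24 in PDGFRa-GFP libraries. Sec24b was lower in NDRG1-eGFP relative to PLP-GFP (-0.55 ± 0.15 (SE), limma adjusted p = 0.0116) and higher in PLP-GFP relative to PDGFRa-GFP (0.49 ± 0.15 (SE), limma adjusted p = 0.0463), and neither held with the length trend removed (-0.11 and 0.22). The first call was lost without replicate 2 of PLP-GFP, with values of -0.63 to -0.47 over the 6 fits and a limma adjusted p of up to 0.0545. The second was lost without replicate 1, 2 or 3 of PLP-GFP or replicate 2 or 3 of PDGFRa-GFP, with values of 0.38 to 0.59 over the 6 fits and a limma adjusted p of up to 0.182. Sec23b, the partner of Sec24 proteins in the inner coat, was at 13, 13.17 and 12.86 in NDRG1-eGFP, 12.79, 12.86 and 12.88 in PLP-GFP and 12.80, 12.34 and 12.54 in PDGFRa-GFP libraries. It was called higher in NDRG1-eGFP relative to PDGFRa-GFP (0.45 ± 0.14 (SE), limma adjusted p = 0.0444) and not with the length trend removed (0.31, limma adjusted p = 0.113). The call of Sec23b was lost without replicate 1 or 2 of NDRG1-eGFP or replicate 2 of PDGFRa-GFP, with values of 0.34 to 0.57 over the 6 fits and a limma adjusted p of up to 0.148. Sec23a, Sec24a, Sec24c, Sec24d and the exit site protein Sec23ip were not called as deposited in any comparison, with log2 fold changes between NDRG1-eGFP and PLP-GFP of -0.32 to 0.27.

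The Sec22 family contains Sec22b, the R-SNARE of traffic between the ER and Golgi, and the related longin proteins Sec22a and Sec22c. Sec22c was at 9.85, 9.76 and 9.97 in NDRG1-eGFP, 9.29, 9.62 and 9.09 in PLP-GFP and 9.65, 9.75 and 9.79 in PDGFRa-GFP libraries. It was called higher in NDRG1-eGFP relative to PLP-GFP (0.53 ± 0.18 (SE), limma adjusted p = 0.0305), more so with the length trend removed (1.04, limma adjusted p = 0.00158). The call of Sec22c was lost without replicate 1 or 3 of NDRG1-eGFP or replicate 1 or 3 of PLP-GFP, with values of 0.41 to 0.67 over the 6 fits and a limma adjusted p of up to 0.138. Sec22a was at 11.08, 10.85 and 10.54 in NDRG1-eGFP, 10.45, 10.27 and 10.30 in PLP-GFP and 10.26, 10.33 and 11.17 in PDGFRa-GFP libraries, a difference between NDRG1-eGFP and PLP-GFP of 0.48 ± 0.24 (SE), limma adjusted p = 0.12. Sec22b averaged 11.94 ± 0.11, 11.78 ± 0.11 and 11.82 ± 0.53 in NDRG1-eGFP, PLP-GFP and PDGFRa-GFP libraries (SD, n = 3 each) and was not called in any comparison.

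Most calls among the Golgi and endosomal syntaxins, a role that here also holds Stx18 of the ER and Stx17 of autophagosomes, went 1 way. Of 8 genes 5 were called higher in NDRG1-eGFP relative to PLP-GFP and 0 lower by limma (1, Stx17, at an unadjusted p under 0.05), with a median log2 fold change of 0.51. With the length trend removed 4 were higher (Stx6, Stx7, Stx8 and Stx18), and against PDGFRa-GFP 4 were higher (Stx6, Stx7, Stx12 and Stx18). This family was singled out after the values were seen, and the background for such a count is 26.1% of all genes higher against PLP-GFP. With the length trend removed that share is 17.7%, and against PDGFRa-GFP as deposited it is 10.7%.

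Stx7 and Stx8 are Q-SNAREs of late endosomes and lysosomes. Stx7 was at 13.41, 13.55 and 13.23 in NDRG1-eGFP, 12.92, 12.92 and 12.91 in PLP-GFP and 12.93, 12.84 and 12.77 in PDGFRa-GFP libraries. The PLP-GFP values spanned 0.01 of a log2 unit around 12.92, and each NDRG1-eGFP library was above all 6 other libraries. Its fold change was 0.48 ± 0.12 (SE), limma adjusted p = 0.00643 against PLP-GFP and 0.55 ± 0.12 (SE), limma adjusted p = 0.0089 against PDGFRa-GFP, and both calls held without any 1 library. Stx8 was at 11.21, 11.31 and 10.95 in NDRG1-eGFP, 10.30, 10.07 and 10.25 in PLP-GFP and 10.37, 10.71 and 11.15 in PDGFRa-GFP libraries. The NDRG1-eGFP libraries lay above all PLP-GFP libraries (0.95 ± 0.20 (SE), limma adjusted p = 0.00338), while replicate 3 of PDGFRa-GFP lay among the NDRG1-eGFP values and the difference between NDRG1-eGFP and PDGFRa-GFP was not called (0.41 ± 0.20 (SE), limma adjusted p = 0.163).

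Stx6, a syntaxin of the trans-Golgi network and early endosomes, was at 14.13, 14.16 and 13.92 in NDRG1-eGFP, 13.45, 13.44 and 13.40 in PLP-GFP and 13.41, 13.40 and 13.83 in PDGFRa-GFP libraries. Its NDRG1-eGFP libraries were above every other library, at 0.64 ± 0.14 (SE), limma adjusted p = 0.00376 against PLP-GFP and 0.53 ± 0.14 (SE), limma adjusted p = 0.0231 against PDGFRa-GFP. Stx18, which sits on the ER and receives vesicles coming back from the Golgi, was at 11.66, 11.79 and 11.47 in NDRG1-eGFP, 10.94, 10.89 and 10.91 in PLP-GFP and 11.15, 11.03 and 11.14 in PDGFRa-GFP libraries. Again all NDRG1-eGFP libraries were highest, with 0.72 ± 0.13 (SE), limma adjusted p = 0.00136 against PLP-GFP and 0.53 ± 0.13 (SE), limma adjusted p = 0.0167 against PDGFRa-GFP. Stx12, of recycling endosomes, was at 13.24, 13.41 and 13.11 in NDRG1-eGFP, 13.07, 12.81 and 12.84 in PLP-GFP and 12.68, 12.58 and 12.89 in PDGFRa-GFP libraries. It was called against PDGFRa-GFP (0.54 ± 0.13 (SE), limma adjusted p = 0.0197) but missed the threshold against PLP-GFP (0.35 ± 0.13 (SE), limma adjusted p = 0.0523). The Stx6 call against PDGFRa-GFP was lost without replicate 1 or 2 of NDRG1-eGFP or replicate 1 or 2 of PDGFRa-GFP, with values of 0.46 to 0.67 over the 6 fits and a limma adjusted p of up to 0.0821. That of Stx12 was lost without replicate 1 or 2 of NDRG1-eGFP or replicate 1 or 2 of PDGFRa-GFP, with values of 0.46 to 0.62 over the 6 fits and a limma adjusted p of up to 0.0777. That of Stx18 was lost without replicate 1 or 2 of NDRG1-eGFP or replicate 2 of PDGFRa-GFP, with values of 0.46 to 0.62 over the 6 fits and a limma adjusted p of up to 0.066.

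Stx5a, the syntaxin of the Golgi itself, averaged 12.34 ± 0.13, 11.81 ± 0.08 and 12.13 ± 0.26 in NDRG1-eGFP, PLP-GFP and PDGFRa-GFP libraries (SD, n = 3 each) and was called higher in NDRG1-eGFP relative to PLP-GFP (0.53 ± 0.15 (SE), limma adjusted p = 0.0142), though not with the length trend removed (0.18) or in 2 of 6 fits without 1 library. Stx17, the syntaxin of autophagosomes, was at 11.23, 11.16 and 11.58 in NDRG1-eGFP, 11.64, 11.74 and 11.61 in PLP-GFP and 11.22, 11.24 and 10.96 in PDGFRa-GFP libraries. PLP-GFP was highest, above PDGFRa-GFP by 0.52 ± 0.15 (SE), limma adjusted p = 0.0394, and this call was not kept with the length trend removed (0.22). The call of Stx17 was lost without replicate 1, 2 or 3 of PLP-GFP or replicate 2 of PDGFRa-GFP, with values of 0.43 to 0.57 over the 6 fits and a limma adjusted p of up to 0.158. Stx16 of the trans-Golgi network was not called in any comparison, and differed by 0.12 between NDRG1-eGFP and PLP-GFP.

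**Figure D4:**
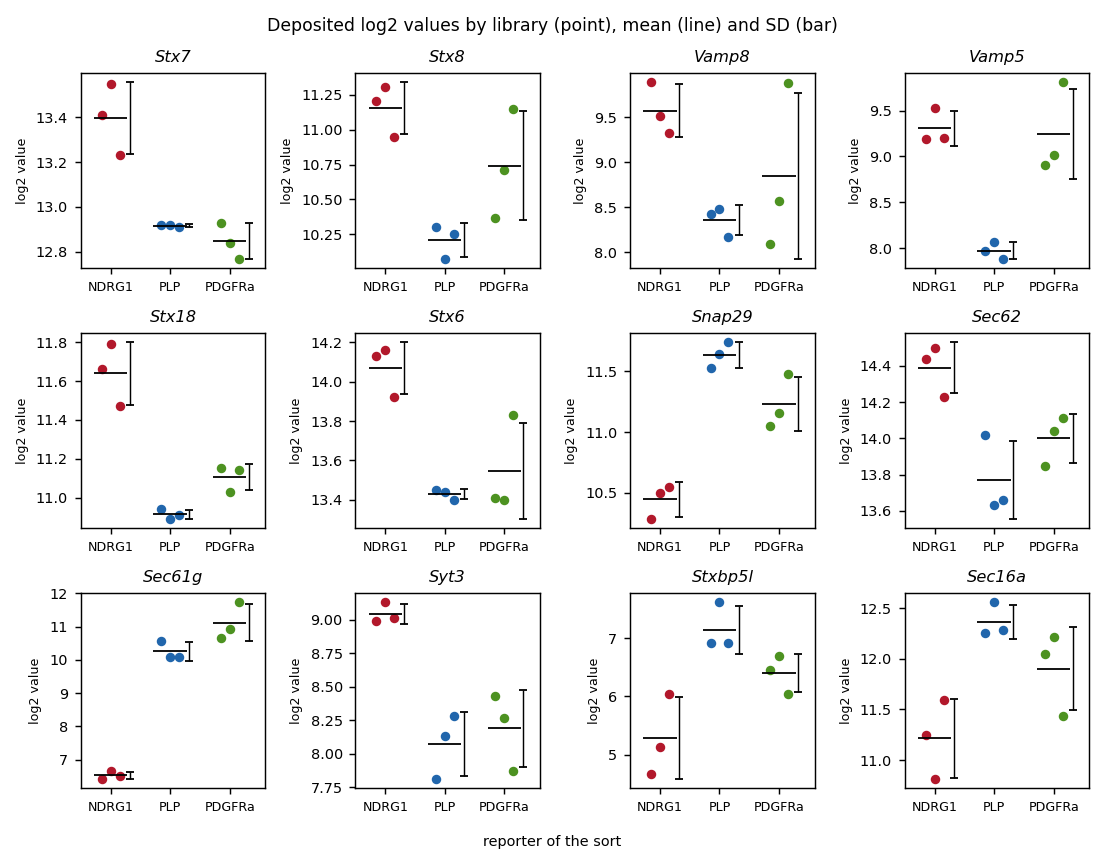
Deposited log2 values of 12 genes, 1 point per library, with the group mean as a line and the SD as a bar; each panel has its own axis, which does not start at 0. For Stx7, Stx6, Stx18, Sec62 and Syt3 all 3 NDRG1-eGFP points lie above the other 6, for Snap29 and Sec61g all 3 lie below the other 6, and for Stx8, Vamp5 and Vamp8 replicate 3 of PDGFRa-GFP reaches the NDRG1-eGFP values.

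Among the VAMPs, 2 of 6 were called higher in NDRG1-eGFP relative to PLP-GFP: Vamp5 and Vamp8. Vamp8, also called endobrevin, is the R-SNARE that pairs with Stx7 and Stx8 on late endosomes, and Vamp5, or myobrevin, was first described in muscle. Vamp5 was at 9.19, 9.53 and 9.20 in NDRG1-eGFP, 7.97, 8.07 and 7.88 in PLP-GFP and 8.91, 9.01 and 9.81 in PDGFRa-GFP libraries. The PLP-GFP libraries were below all 6 others, and the PDGFRa-GFP libraries overlapped those of NDRG1-eGFP. For NDRG1-eGFP against PLP-GFP the log2 fold change was 1.33 ± 0.25 (SE), limma adjusted p = 0.00205, a 2.51-fold higher level. It was -1.27 ± 0.25 (SE), limma adjusted p = 0.0129 for PLP-GFP against PDGFRa-GFP and 0.06 for NDRG1-eGFP against PDGFRa-GFP. Vamp8 was at 9.89, 9.51 and 9.32 in NDRG1-eGFP, 8.42, 8.48 and 8.17 in PLP-GFP and 8.09, 8.57 and 9.88 in PDGFRa-GFP libraries. In PDGFRa-GFP replicate 3 was as high as the highest NDRG1-eGFP library, to within 0.01, while its 2 partners were near the PLP-GFP values. Vamp8 was called against PLP-GFP (1.22 ± 0.39 (SE), limma adjusted p = 0.0249, 2.32-fold higher in NDRG1-eGFP) and not against PDGFRa-GFP (0.73 ± 0.39 (SE), limma adjusted p = 0.202). The Vamp8 call was lost without replicate 1 or 2 of NDRG1-eGFP or replicate 1, 2 or 3 of PLP-GFP, with values of 1.06 to 1.34 over the 6 fits and a limma adjusted p of up to 0.0889.

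Vamp5 and Vamp8 are among the shortest transcripts here (623 and 820 bases), and after removal of the length trend their values between NDRG1-eGFP and PLP-GFP were 1.20 and 0.85, both still called. For Vamp5 in PLP-GFP against PDGFRa-GFP the value was -0.68 and no longer called (limma adjusted p = 0.077). The call as deposited was lost without replicate 2 or 3 of PLP-GFP, with values of -1.43 to -0.98 over the 6 fits and a limma adjusted p of up to 0.0606. PLP-GFP had the lowest mean of both genes. Of the markers of other cells, the fibroblast-like sums were 89.8 to 385 ppm in NDRG1-eGFP, 5.68 to 13.8 in PLP-GFP and 207 to 489 in PDGFRa-GFP libraries, and the microglial sums 116 to 181, 56.2 to 81.3 and 70.8 to 118 ppm. The fibroblast-like sums of PLP-GFP were below those of all other libraries, while its microglial sums overlapped those of PDGFRa-GFP. Astrocyte sums overlapped among the groups, at 162 to 205 ppm in NDRG1-eGFP, 171 to 216 in PLP-GFP and 182 to 231 in PDGFRa-GFP libraries. The part of other cells in the values of Vamp5 and Vamp8 was not tested. In sorted bulk samples fewer cells of a kind and less RNA per cell cannot be told apart.

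Vamp5 and Vamp8 lie close together on chromosome 6, both on the minus strand, with starts 10199 bases apart. The 250 bases before each start are shown because the genes lie side by side and rose together against PLP-GFP; the windows are from the RefSeq promoter table (GRCm38.p6), which held 61 of the 70 genes, and capitals mark every CG pair.
Vamp8 chr6:72390668-72390917, minus strand: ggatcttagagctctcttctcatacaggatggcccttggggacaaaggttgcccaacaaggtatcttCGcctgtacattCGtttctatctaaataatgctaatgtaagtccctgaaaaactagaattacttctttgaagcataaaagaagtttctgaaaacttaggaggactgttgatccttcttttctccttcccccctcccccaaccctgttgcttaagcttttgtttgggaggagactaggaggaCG
Vamp5 chr6:72380469-72380718, minus strand: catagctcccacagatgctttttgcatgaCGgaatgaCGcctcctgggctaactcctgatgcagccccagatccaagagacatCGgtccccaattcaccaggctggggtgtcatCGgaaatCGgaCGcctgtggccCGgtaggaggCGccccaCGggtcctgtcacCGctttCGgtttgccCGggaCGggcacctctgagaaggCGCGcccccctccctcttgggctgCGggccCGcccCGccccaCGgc
The Vamp8 window had 3 CG pairs and a GC content of 43.6%, and the Vamp5 window 19 pairs and 66% GC. The median over the 32851 promoter windows of the same length was 6 pairs, 29% had fewer than Vamp8 and 80.3% had fewer than Vamp5. This describes the windows and was not tied to the levels.

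The VAMPs of constitutive surface traffic were not called in any comparison as deposited. Vamp2 averaged 13.93 ± 0.16 in NDRG1-eGFP, 13.84 ± 0.08 in PLP-GFP and 13.78 ± 0.18 in PDGFRa-GFP libraries, and Vamp3 13.10 ± 0.05, 13.20 ± 0.10 and 13.18 ± 0.29 in the same groups (SD, n = 3 each). Between NDRG1-eGFP and PLP-GFP the differences were 0.10 ± 0.13 (SE), limma adjusted p = 0.566 for Vamp2 and -0.10 ± 0.15 (SE), limma adjusted p = 0.614 for Vamp3. With the length trend removed Vamp3 was called lower in NDRG1-eGFP (-0.50, limma adjusted p = 0.0123), as was the trans-Golgi VAMP Vamp4 (-0.49, limma adjusted p = 0.0384, against 0.08 as deposited), neither of which was called as deposited. Vamp1, another synaptobrevin, was not called in any comparison and had 1 low library, replicate 3 of PDGFRa-GFP at 7.96.

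At the plasma membrane 4 syntaxins are described. As deposited, Stx2 and Stx4a were called higher in NDRG1-eGFP relative to PLP-GFP, and with the length trend removed neither was. Stx2 was at 12.14, 11.87 and 12.10 in NDRG1-eGFP, 11.53, 11.45 and 11.39 in PLP-GFP and 11.47, 11.41 and 10.71 in PDGFRa-GFP libraries. All its NDRG1-eGFP libraries were above the 6 others, and it was called higher against PLP-GFP (0.58 ± 0.19 (SE), limma adjusted p = 0.0308) and against PDGFRa-GFP (0.84 ± 0.19 (SE), limma adjusted p = 0.0139). The call against PLP-GFP was not kept with the length trend removed (0.43, limma adjusted p = 0.106). As deposited it was lost without replicate 1 or 3 of NDRG1-eGFP or replicate 1, 2 or 3 of PLP-GFP, with values of 0.53 to 0.66 over the 6 fits and a limma adjusted p of up to 0.0942. The call against PDGFRa-GFP was lost without replicate 1 of NDRG1-eGFP, with values of 0.60 to 0.98 over the 6 fits and a limma adjusted p of up to 0.0534. Stx4a, the general surface syntaxin that partners Snap23, was at 12.17, 12.69 and 12.72 in NDRG1-eGFP, 12.02, 11.71 and 12.02 in PLP-GFP and 12.67, 13.13 and 12.38 in PDGFRa-GFP libraries. All PLP-GFP libraries were below the 6 others. NDRG1-eGFP was higher than PLP-GFP (0.61 ± 0.21 (SE), limma adjusted p = 0.0349), and PLP-GFP was lower than PDGFRa-GFP (-0.81 ± 0.21 (SE), limma adjusted p = 0.029). With the length trend removed the values were 0.04 and -0.47, and neither was called. The first call was lost without replicate 2 or 3 of NDRG1-eGFP or replicate 1, 2 or 3 of PLP-GFP, with values of 0.51 to 0.79 over the 6 fits and a limma adjusted p of up to 0.128. The second was lost without replicate 1, 2 or 3 of PLP-GFP or replicate 2 of PDGFRa-GFP, with values of -0.98 to -0.61 over the 6 fits and a limma adjusted p of up to 0.131.

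Of the 70 genes 17, Stx4a, Stx18 and Sec61a2 among them, have exons that overlap a gene on the opposite strand. For Stx18 the overlap is 908 bases with Gm42858 and 574 with Nsg1, and for Sec61a2 it is 909 bases with Nudt5. Whether the counting used strand is not given in the sources used here, so part of such a value may belong to the other gene. The neuronal syntaxin Stx1a (7.21, 6.85 and 6.41 in NDRG1-eGFP, 6.24, 6.83 and 6.71 in PLP-GFP, 5.67, 6.40 and 4.47 in PDGFRa-GFP libraries) and the apical syntaxin Stx3 were not called in any comparison. Of the neuron markers 1 of 11 was called higher and 0 lower by limma in NDRG1-eGFP against PLP-GFP (2 higher and 0 lower at an unadjusted p under 0.05), with sums of 135 to 179 ppm in NDRG1-eGFP and 120 to 200 in PLP-GFP libraries.

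In the SNAP-25 family 1 of 4 genes, Snap29, was called lower in NDRG1-eGFP relative to PLP-GFP and 1, Snap47, higher, of which the lower call was kept with the length trend removed. Snap29, which joins Stx17 and Vamp8 in the fusion of autophagosomes with lysosomes, was at 10.28, 10.50 and 10.55 in NDRG1-eGFP, 11.53, 11.64 and 11.74 in PLP-GFP and 11.05, 11.16 and 11.48 in PDGFRa-GFP libraries. Every NDRG1-eGFP library was below all 6 others by at least 0.50 log2 units, a 2.28-fold lower level against PLP-GFP (-1.19 ± 0.15 (SE), limma adjusted p = 0.000246) and a 1.72-fold lower level against PDGFRa-GFP (-0.79 ± 0.15 (SE), limma adjusted p = 0.00611). Both calls held without any 1 library and with the length trend removed (-1.10 and -0.81), and no transcript window of Snap29 is shared with another locus, although 60 of its exon bases lie opposite Pi4ka. Snap47 was at 12.88, 13.01 and 12.83 in NDRG1-eGFP, 12.50, 12.43 and 12.42 in PLP-GFP and 12.43, 12.34 and 12.77 in PDGFRa-GFP libraries. It was called higher in NDRG1-eGFP relative to PLP-GFP (0.45 ± 0.13 (SE), limma adjusted p = 0.0176), but at -0.02 with the length trend removed. The call as deposited was lost without replicate 2 of NDRG1-eGFP or replicate 2 or 3 of PLP-GFP, with values of 0.40 to 0.49 over the 6 fits and a limma adjusted p of up to 0.0651.

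Snap23, the widespread surface partner of Stx4a, averaged 11.85 ± 0.18, 11.75 ± 0.10 and 11.54 ± 0.01 in NDRG1-eGFP, PLP-GFP and PDGFRa-GFP libraries (SD, n = 3 each) and was not called in any comparison. Snap25, the synaptic form, varied from 4.98 to 8.91 over the libraries and was not called (1.20 ± 0.80 (SE), limma adjusted p = 0.238 for NDRG1-eGFP against PLP-GFP). Genes were also read by the complexes known from other cells, which were put together after the values were seen. In the late endosomal set Stx7, Stx8, Vamp8 and the partner Vti1b were all called higher in NDRG1-eGFP relative to PLP-GFP. Over all genes 26.1% were. Vti1b was at 0.69 ± 0.12 (SE), limma adjusted p = 0.00114, and at 0.13 with the length trend removed. Vamp8 lost its call in 5 of 6 fits without 1 library. In the surface set Stx4a was called higher, and Snap23, Vamp2 and Vamp3 were not. In the set at the ER Stx18, Bnip1 and Use1 were called higher, and Sec22b was not. With the length trend removed Use1 was at 0.38 and not called (limma adjusted p = 0.136), while Stx18 and Bnip1 kept their calls. In the autophagosomal set Stx17 (-0.34 ± 0.15 (SE), limma adjusted p = 0.0836) was not called, Snap29 was lower and Vamp8 higher.

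The syntaxin-binding proteins hold and release syntaxins. Called lower in NDRG1-eGFP relative to PLP-GFP were Stxbp5 and Stxbp5l, the tomosyns, which occupy syntaxins with a VAMP-like tail and so slow fusion. Stxbp5 was at 9.49, 9.38 and 9.49 in NDRG1-eGFP, 10.56, 10.80 and 10.69 in PLP-GFP and 10.18, 10.27 and 8.77 in PDGFRa-GFP libraries. Stxbp5l was at 4.66, 5.14 and 6.05 in NDRG1-eGFP, 6.91, 7.62 and 6.91 in PLP-GFP and 6.45, 6.70 and 6.05 in PDGFRa-GFP libraries. In both genes every NDRG1-eGFP library was below every PLP-GFP library, with PDGFRa-GFP between them in its mean. The fold changes were -1.23 ± 0.33 (SE), limma adjusted p = 0.0117 for Stxbp5 and -1.87 ± 0.47 (SE), limma adjusted p = 0.00849 for Stxbp5l, and with the length trend removed -0.85 (limma adjusted p = 0.0508) and -1.54 (limma adjusted p = 0.0225). Of the Munc18 proteins, Stxbp3 was not called in any comparison, and Stxbp2 was at 11.51, 11.69 and 12.21 in NDRG1-eGFP, 11.07, 10.42 and 10.84 in PLP-GFP and 11.44, 12.09 and 9.46 in PDGFRa-GFP libraries, and was not called (1.03 ± 0.53 (SE), limma adjusted p = 0.133 for NDRG1-eGFP against PLP-GFP). Stxbp4 and Stxbp6 were not called as deposited, while Stxbp6 was called higher in NDRG1-eGFP relative to PLP-GFP with the length trend removed (0.65, limma adjusted p = 0.00205, against 0.30 as deposited).

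Synaptotagmins are membrane proteins of vesicle traffic, several of which couple fusion to calcium, and of the 6 measured 1 was called higher in NDRG1-eGFP relative to PLP-GFP. Syt3, a plasma membrane sensor with high calcium affinity, was at 8.99, 9.13 and 9.01 in NDRG1-eGFP, 7.81, 8.13 and 8.28 in PLP-GFP and 8.43, 8.27 and 7.87 in PDGFRa-GFP libraries. All NDRG1-eGFP libraries exceeded the other 6, by 0.97 ± 0.23 (SE), limma adjusted p = 0.0061 against PLP-GFP and 0.85 ± 0.23 (SE), limma adjusted p = 0.0263 against PDGFRa-GFP, the second of which was at 0.69 and missed the threshold with the length trend removed (limma adjusted p = 0.0563). As deposited it was lost without replicate 1, 2 or 3 of NDRG1-eGFP or replicate 2 of PDGFRa-GFP, with values of 0.69 to 0.97 over the 6 fits and a limma adjusted p of up to 0.0808. Syt13 was at 4.09, 5.90 and 7.87 in NDRG1-eGFP, 3.81, 3.61 and 4.66 in PLP-GFP and 3.02, 3.21 and 1.80 in PDGFRa-GFP libraries. The difference from PLP-GFP was 1.92 ± 1.07 (SE), limma adjusted p = 0.161 and that from PDGFRa-GFP 3.27 ± 1.07 (SE), limma adjusted p = 0.0531, with an SD of 1.89 among the NDRG1-eGFP libraries. Syt1, Syt4 and Syt9 were not called in any comparison.

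The exocyst was measured in full, with Exoc1 to Exoc8 and the paralogue Exoc6b. Between NDRG1-eGFP and PLP-GFP 1 of 9 genes was called higher and 3 lower, and with the length trend removed 2 were higher (Exoc3, at 0.59 against 0.17 as deposited, and Exoc7) and 0 lower by limma (1 at an unadjusted p under 0.05). Exoc7, the subunit that binds the lipids of the plasma membrane, was at 12.71, 12.97 and 12.92 in NDRG1-eGFP, 12.27, 12.28 and 12.34 in PLP-GFP and 12.42, 12.42 and 11.92 in PDGFRa-GFP libraries. Its NDRG1-eGFP libraries were above all others, at 0.57 ± 0.15 (SE), limma adjusted p = 0.0109 against PLP-GFP and 0.61 ± 0.15 (SE), limma adjusted p = 0.0194 against PDGFRa-GFP. The second call was lost without replicate 2 or 3 of NDRG1-eGFP, with values of 0.45 to 0.70 over the 6 fits and a limma adjusted p of up to 0.073. Exoc6, at 10.73, 10.96 and 10.54 in NDRG1-eGFP, 10.42, 10.83 and 10.76 in PLP-GFP and 10.22, 10.02 and 10.15 in PDGFRa-GFP libraries, was called against PDGFRa-GFP (0.61 ± 0.17 (SE), limma adjusted p = 0.0289) and not against PLP-GFP (0.07 ± 0.17 (SE), limma adjusted p = 0.749). The call was lost without replicate 1 or 2 of NDRG1-eGFP or replicate 1 or 2 of PDGFRa-GFP, with values of 0.50 to 0.71 over the 6 fits and a limma adjusted p of up to 0.104.

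The subunits called lower in NDRG1-eGFP relative to PLP-GFP were Exoc2, Exoc6b and Exoc8. Exoc2, which binds the GTPases RalA and RalB, was at 11.30, 11.29 and 11.40 in NDRG1-eGFP, 11.69, 11.97 and 11.97 in PLP-GFP and 11.54, 11.38 and 11.31 in PDGFRa-GFP libraries, with PLP-GFP above all 6 other libraries. The difference was -0.55 ± 0.13 (SE), limma adjusted p = 0.00638 for NDRG1-eGFP against PLP-GFP and 0.47 ± 0.13 (SE), limma adjusted p = 0.0373 for PLP-GFP against PDGFRa-GFP, where the value was 0.24 and not called with the length trend removed. The second call was lost without replicate 2 or 3 of PLP-GFP or replicate 2 of PDGFRa-GFP, with values of 0.42 to 0.56 over the 6 fits and a limma adjusted p of up to 0.161. Exoc6b was at 13.45, 13.70 and 14.05 in NDRG1-eGFP, 14.58, 14.72 and 14.72 in PLP-GFP and 14.33, 14.41 and 13.30 in PDGFRa-GFP libraries, a difference of -0.94 ± 0.26 (SE), limma adjusted p = 0.0142 between NDRG1-eGFP and PLP-GFP. The call of Exoc6b was lost without replicate 1 of NDRG1-eGFP, with values of -1.09 to -0.80 over the 6 fits and a limma adjusted p of up to 0.0598. Per kilobase it was the highest of the exocyst genes. Exoc8 differed by -0.52 ± 0.18 (SE), limma adjusted p = 0.032 and lost its call without any 1 library. With the length trend removed the 3 values were -0.23, -0.46 and -0.16, and none was called. Exoc1, Exoc3, Exoc4 and Exoc5 were not called as deposited in any comparison, with differences between NDRG1-eGFP and PLP-GFP of -0.25 to 0.17. The exocyst-like gene Exoc3l, a relative of Exoc3, was at 4.09, 3.82 and 4.61 in NDRG1-eGFP, 6.28, 7.10 and 6.43 in PLP-GFP and 4.57, 4.09 and 5.90 in PDGFRa-GFP libraries. It was called lower in NDRG1-eGFP relative to PLP-GFP (-2.43 ± 0.65 (SE), limma adjusted p = 0.0113), also with the length trend removed (-2.68). The call of Exoc3l was lost without replicate 2 of PLP-GFP, with values of -2.65 to -2.18 over the 6 fits and a limma adjusted p of up to 0.0654. These are low values, and its exons overlap those of an antisense gene by 531 bases.

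The remaining members are lipid transfer proteins and AP180. Sec14l5 was at 11.83, 11.73 and 12.92 in NDRG1-eGFP, 13.58, 13.30 and 13.48 in PLP-GFP and 13.40, 13.75 and 11.79 in PDGFRa-GFP libraries. Replicate 3 of NDRG1-eGFP and replicate 3 of PDGFRa-GFP each stood away from their partners, and the difference of -1.29 ± 0.45 (SE), limma adjusted p = 0.0372 between NDRG1-eGFP and PLP-GFP was -0.78 and not called with the length trend removed. The call as deposited was lost without replicate 1 or 2 of NDRG1-eGFP or replicate 1, 2 or 3 of PLP-GFP, with values of -1.67 to -1.08 over the 6 fits and a limma adjusted p of up to 0.13. Sec14l2, a tocopherol-binding protein, was at 9.86, 9.64 and 9.87 in NDRG1-eGFP, 10.24, 10.17 and 10.29 in PLP-GFP and 10.23, 10 and 9.47 in PDGFRa-GFP libraries. It was not called as deposited (-0.44 ± 0.20 (SE), limma adjusted p = 0.0894) and called lower with the length trend removed (-0.64), as was Sec14l1 (-0.35, against -0.24 as deposited). Snap91 was at 10.74, 10.87 and 10.80 in NDRG1-eGFP, 10.33, 10.67 and 10.75 in PLP-GFP and 10.72, 10.72 and 9.67 in PDGFRa-GFP libraries and was not called in any comparison (0.22 ± 0.26 (SE), limma adjusted p = 0.518 for NDRG1-eGFP against PLP-GFP).

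Genes of the same route outside the symbol rule were read from 4 lists. Of 23 measured other SNAREs and their NSF and Sec1/Munc18 helpers, 10 were called higher and 2 lower in NDRG1-eGFP relative to PLP-GFP, and with the length trend removed 4 and 1. Bnip1, an ER SNARE that partners Stx18, was at 9.93, 9.95 and 9.86 in NDRG1-eGFP, 8.79, 8.54 and 8.75 in PLP-GFP and 8.99, 8.99 and 9.44 in PDGFRa-GFP libraries (1.22 ± 0.19 (SE), limma adjusted p = 0.000612). Ykt6, an R-SNARE anchored by lipid, was at 11.57, 11.55 and 11.40 in NDRG1-eGFP, 12.18, 12.11 and 12.25 in PLP-GFP and 12.01, 12.04 and 12.08 in PDGFRa-GFP libraries (-0.68 ± 0.11 (SE), limma adjusted p = 0.000978). Vti1b, given above with Stx7 and Stx8, was at 12.60, 12.57 and 12.66 in NDRG1-eGFP, 12.03, 11.83 and 11.90 in PLP-GFP and 12.29, 12.56 and 12.39 in PDGFRa-GFP libraries. Libraries of NDRG1-eGFP and PLP-GFP did not overlap for these 3 genes.

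Of 22 COPI genes and COPII regulators 6 were higher and 4 lower, and 3 and 4 with the length trend removed. Cope, a COPI coat subunit, was at 13.94, 13.89 and 13.82 in NDRG1-eGFP, 12.76, 12.40 and 12.50 in PLP-GFP and 13.19, 13.36 and 13.26 in PDGFRa-GFP libraries (1.33 ± 0.12 (SE), limma adjusted p = 3.13e-05). Tmed10, a cargo receptor, was at 12.06, 12 and 11.74 in NDRG1-eGFP, 13.39, 13.31 and 13.24 in PLP-GFP and 13.44, 13.37 and 13.80 in PDGFRa-GFP libraries (-1.38 ± 0.14 (SE), limma adjusted p = 6.66e-05). Its partner Tmed2 was at 8.93, 8.80 and 8.72 in NDRG1-eGFP, 10.88, 10.62 and 10.32 in PLP-GFP and 10.15, 10.15 and 11.18 in PDGFRa-GFP libraries (-1.79 ± 0.27 (SE), limma adjusted p = 0.000604). Both were lower in all NDRG1-eGFP libraries than in any other. Like Sec61g they share sequence with other loci, in 32.4% and 27.6% of their transcript windows.

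Of 20 genes for targeting to and insertion at the ER 9 were higher and 3 lower, and 7 and 2 with the length trend removed. Sec11c, the second catalytic subunit of the signal peptidase, was at 15.65, 15.50 and 15.53 in NDRG1-eGFP, 14.56, 14.41 and 14.49 in PLP-GFP and 15.17, 15.58 and 15.80 in PDGFRa-GFP libraries (1.08 ± 0.15 (SE), limma adjusted p = 0.000414), with PLP-GFP below all other libraries. The signal recognition particle gene Srp19 (0.98 ± 0.15 (SE), limma adjusted p = 0.000677) was at 13.05, 12.79 and 12.82 in NDRG1-eGFP, 12.14, 11.72 and 11.85 in PLP-GFP and 12.38, 12.67 and 12.32 in PDGFRa-GFP libraries. The translocon-associated gene Ssr4 (1.13 ± 0.18 (SE), limma adjusted p = 0.000843) was at 12.48, 12.33 and 12.42 in NDRG1-eGFP, 11.54, 11.11 and 11.20 in PLP-GFP and 11.93, 12.23 and 12.62 in PDGFRa-GFP libraries. Both were lowest in PLP-GFP.

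Of 29 tethers other than the exocyst 14 were higher and 6 lower, and 6 and 4 with the length trend removed. Within 1 complex, TRAPP, which tethers vesicles at the Golgi, members went both ways: Trappc1 was at 11.40, 11.67 and 11.23 in NDRG1-eGFP, 10.51, 10.23 and 10.28 in PLP-GFP and 10.74, 10.78 and 10.97 in PDGFRa-GFP libraries (1.09 ± 0.16 (SE), limma adjusted p = 0.000451). Trappc10 was at 12.56, 12.22 and 12.15 in NDRG1-eGFP, 13.34, 13.60 and 13.45 in PLP-GFP and 13.29, 13.21 and 13.18 in PDGFRa-GFP libraries (-1.16 ± 0.13 (SE), limma adjusted p = 0.000139). Vps54, of the GARP tether at the trans-Golgi network, was at 10.07, 9.65 and 9.34 in NDRG1-eGFP, 10.90, 11.16 and 11.18 in PLP-GFP and 11, 10.54 and 10.24 in PDGFRa-GFP libraries (-1.39 ± 0.23 (SE), limma adjusted p = 0.000956). Their NDRG1-eGFP and PLP-GFP libraries did not overlap. The background for the counts of the 4 lists is the 26.1% higher and 22.2% lower of all genes as deposited. With the length trend removed it is 17.7% and 15.7%.

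**Figure D5:**
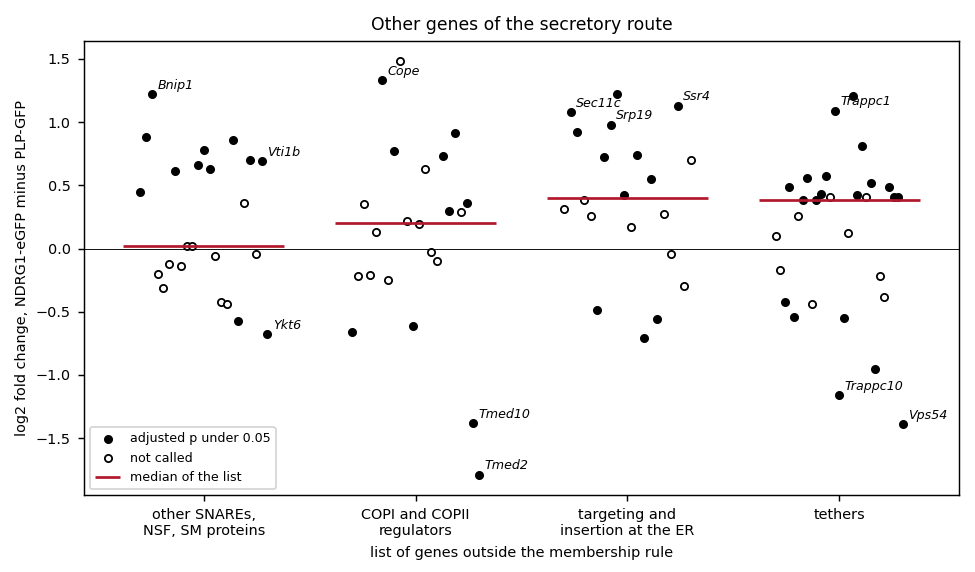
Each point is the log2 fold change between NDRG1-eGFP and PLP-GFP of 1 gene of the 4 lists outside the symbol rule, filled where called, in alphabetical order within a list, with the list's median as a line; the 3 genes with the smallest adjusted p in each list are named. The medians are 0.02, 0.20, 0.40 and 0.38, and the lowest values are those of Tmed2, Vps54 and Tmed10.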

How the data were processed

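Per the labels' protocols, RNA was isolated on columns from sorted cell pellets and made into Illumina libraries. BWA, DESeq2 1.2.5 and mm10 appear in the submitters' processing notes, without roles. Each deposited file held 1 library with normalized values for 11315 genes; the authors had put them on a log2 scale before deposit, and the value distributions of the libraries are nearly identical. Raw counts were not analysed here.

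All 9 libraries entered 1 limma-trend fit (limma 3.58.1, R 4.3.3) with a term per group and no block. A filter (a value of 1 or more in 3 libraries) removed no gene. P-values were two-sided and adjusted by Benjamini-Hochberg over 11315 genes, with an adjusted p under 0.05 called. An exact test of 3 against 3 libraries cannot go below 0.1 and was not used. The fit was tested on simulated data.

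Transcript lengths (longest principal transcript) and shared 50-base windows came from GENCODE M21. Alternatives were median ratio recentring, no filter, a mean of at least 8, a linear constant of 5, a replicate block, fits of 2 groups only, removal of each library's spline trend (4 degrees of freedom) on length, shared genes left out, robust empirical Bayes, a log2 fold change of at least 1, and each library left out.

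Named with every library value were, per comparison, the 10 highest and 10 lowest called genes without overlap, the 2 smallest adjusted p per role and the 3 smallest per list of other genes; further genes were named from their values. Values of some genes are not reported here, in the text or the figures, although counts include them. Members and lists were chosen with earlier results of these data known.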

Additional observations from a re-analysis of the deposited data

How the results depend on the processing

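For NDRG1-eGFP against PLP-GFP, the 18 higher and 13 lower calls became 2 and 8 when a log2 fold change of at least 1 was also asked, and 11 to 14 and 8 to 13 without 1 library, lowest without PLP-GFP replicate 2 (11 and 8) or replicate 3 (11 higher). For PLP-GFP against PDGFRa-GFP, the 4 higher calls became 2 with median ratio recentring and 0 with only the 2 groups fitted, with the length trend removed or at a log2 fold change of at least 1, and 0 to 10 without 1 library; the 3 lower calls became 1 with the length trend removed, 1 at that fold change and 0 to 6 without 1 library. For NDRG1-eGFP against PDGFRa-GFP, the 9 higher calls became 5 with recentring, 1 with only the 2 groups fitted, 0 at that fold change and 2 to 17 without 1 library; the 2 lower calls became 1 with shared genes left out, 1 at that fold change and 2 to 7 without 1 library. With the replicate number as a block the counts were 14 higher and 11 lower, 0 and 1, and 2 and 2 in the 3 comparisons. Apart from the removal of the length trend, the shares of all genes called under these alternatives are not given here. The counts therefore do not set the secretory genes apart from all genes. Deviations of same-numbered libraries correlated at -0.234 to 0.094, and those of differently numbered libraries at -0.134 to 0.225. Whether the numbers pair the libraries is not given in the sources used here, and these correlations cannot decide it. Of the values of single genes named by the rule, 1420 under the alternatives kept their side of the threshold (28 of them, called in neither fit, changed sign), 140 lost the call with the same sign, 41 gained it with the same sign, and 1 called value changed sign, that of Snap47, at -0.02 between NDRG1-eGFP and PLP-GFP with the length trend removed. Vamp4, named outside the rule, was at 0.08 as deposited, not called, and at -0.49, called, with that trend removed. Where fewer libraries entered a fit, fewer degrees of freedom were left; the cause of the other changes was not tested. Normalized values without counts leave the precision of low genes such as Syt1, Syt4 and Syt13 to the spread of 3 libraries.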
